A study of Arabidopsis thaliana with 18 samples.

Results

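AT3G04170 and AT3G04200 are germin-like genes of Arabidopsis thaliana that lie in the same cluster on chromosome 3. They were chosen by measured values of these data, AT3G04170 by its change over the stages of seed development and AT3G04200 by its difference between the accessions C24 and Col-0. The array's annotation pairs each of the 2 genes with 1 of the 19755 probe sets tested, 258580_at for AT3G04170 and 258578_at for AT3G04200, among 11630 genes that have a probe set of their own. Seeds were dissected from siliques of C24 and Col-0, natural accessions carrying no transgene or mutation named in the labels, at 8-9, 10-11 and 12-13 days after the flower opened. Each of the 6 groups of accession and stage held 3 ATH1 arrays. The seeds of 48 siliques were pooled for an array, with 6 plants giving 8 siliques apiece. In both of the 2 experiments an accession was grown as 6 plants. Pools of an accession therefore shared plants, within and across stages, so that p-values rest on the spread among pools and not among independent plants.

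Germins and germin-like proteins are small secreted glycoproteins of the plant cell wall, folded as a cupin barrel that binds a metal ion. The germin of wheat and barley is an oxalate oxidase, which releases hydrogen peroxide, and some germin-like proteins of other plants act as superoxide dismutases. The seed storage globulins belong to the same cupin superfamily. Neither locus has a symbol other than its locus name in the RefSeq table, and no enzyme activity is assigned to them here.

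Of 8 protein-coding genes from AT3G04150 to AT3G04200 in RefSeq gene order, 5 were on a hand-written germin-like list, namely AT3G04150, AT3G04170, AT3G04180, AT3G04190 and AT3G04200. The annotation named a probe set for 3 of these, AT3G04150 in addition to the pair described here. AT3G04170 and AT3G04200 are separated by 4 protein-coding genes, and AT3G04150 lies on the other side of AT3G04170, with AT3G04160, which is not germin-like, between them. Germin-like genes of a cluster resemble each other in sequence, and whether a probe set also binds transcripts of its neighbours was not tested.

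All values are log2 levels of a probe set. An array's median was 6.05 to 6.17 and its highest value 14.09 to 14.33. The 25th percentile was 4.41 to 4.57. The table holds no measure of background, so a probe set this dim cannot be said to exceed it. Across probe sets, replicate arrays correlated at 0.992 to 0.997, and no pair of arrays held identical values. The tissue was checked against fixed markers: 6 of 11 seed storage and oil genes had a named probe set, with a mean level per array between 11.54 and 13.45. Of 8 seed coat markers 2 were named, BAN and DFR, enzymes of flavonoid synthesis, of 6 silique wall markers 1, ALC, at 5.64 to 6.53, and of 5 endosperm markers 1, AGL62, at 3.47 to 4.05 and so under the 25th percentile. None of 4 embryo regulators was named. A single dim marker cannot show how much endosperm the pools held.

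AT3G04170 was at the low end of the array scale at 8-9 days and among the bright probe sets from 10-11 days on, in both accessions. In C24 its 3 arrays read 4.63, 4.77 and 4.74 at 8-9 days, 11.26, 11.75 and 11.66 at 10-11 days, and 12.69, 12.80 and 12.67 at 12-13 days. In Col-0 they read 4.40, 4.73 and 4.69 at 8-9 days, 11.18, 10.70 and 11.55 at 10-11 days, and 12.91, 12.79 and 12.43 at 12-13 days. Within each accession the 3 stages did not overlap, whereas at each stage the arrays of the accessions did.

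The change from 8-9 to 12-13 days is what brought AT3G04170 forward, so it is given as a description. It was 8.01 ± 0.17 in C24 and 8.10 ± 0.17 in Col-0 (log2, SE of the model, 3 arrays per group), or 258-fold and 275-fold. Among all probe sets it ranked 5 from the top in C24 and 7 in Col-0. In that comparison 59.4% of all probe sets passed an adjusted p of 0.05 in C24 and 60.6% in Col-0. Since the levels at 8-9 days lay close to the 25th percentile, these changes can be understated.

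Most of the change of AT3G04170 fell into the first step. From 8-9 to 10-11 days the level was higher by 6.84 ± 0.17 in C24 and 6.54 ± 0.17 in Col-0, which is 85.5% and 80.7% of the whole log2 change, and more where the dim 8-9 day level understates the change. From 10-11 to 12-13 days it was higher by a further 1.17 ± 0.17 in C24 and 1.57 ± 0.17 in Col-0. Of the variance over the 18 arrays, stage held 99.6%, accession 0.062%, their combination 0.059% and the spread within groups 0.32%. The medians over all probe sets were 51.7%, 4.56%, 5.81% and 21.2%.

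**Figure D1:**
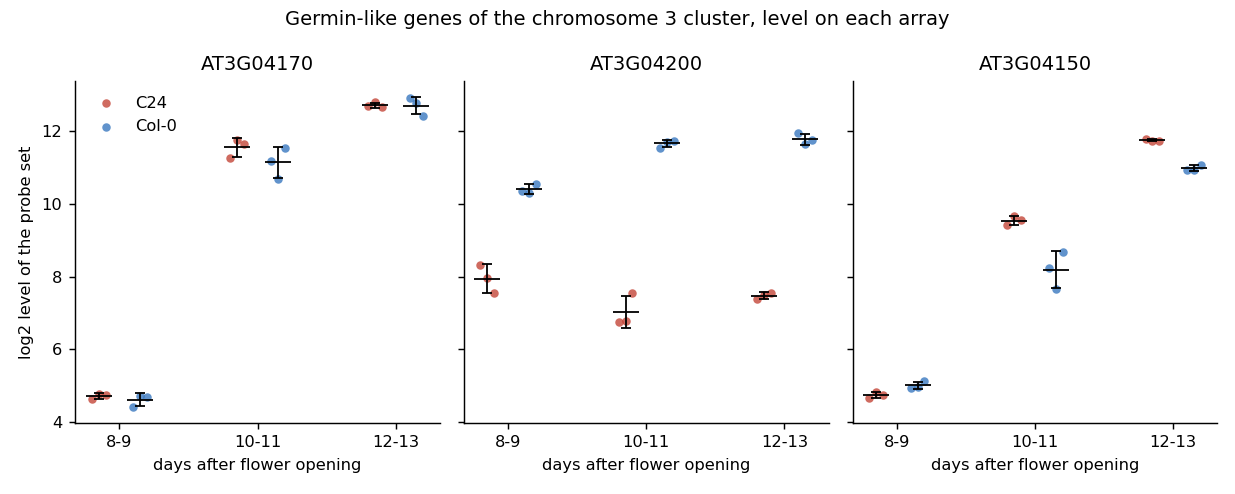
Log2 level of the probe sets of AT3G04170, AT3G04200 and their cluster neighbour AT3G04150 on each array (points), by days after flower opening, with C24 left of Col-0; bars are mean ± SD of 3 arrays. AT3G04170 goes up with stage alike in both accessions, AT3G04200 is lower in C24 at every stage with no overlap, and AT3G04150 goes up in both and is higher in C24 from 10-11 days.

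The accession comparison of AT3G04170 asked whether a transcript with so steep a course differs between C24 and Col-0 seeds of the same age. At 8-9 days AT3G04170 averaged 4.71 ± 0.07 in C24 and 4.61 ± 0.18 in Col-0 (SD, n = 3). The C24 and Col-0 means were 11.56 ± 0.26 and 11.14 ± 0.43 at 10-11 days and 12.72 ± 0.07 and 12.71 ± 0.25 at 12-13 days. The differences, C24 minus Col-0, were 0.10, 0.41 and 0.01, each with an SE of 0.17, and none passed in limma (adjusted p = 0.748, 0.112 and 0.975). The calls over all probe sets were 19.5%, 19.1% and 23% in these comparisons. The 95% intervals ran from -0.26 to 0.47 at 8-9 days, from 0.05 to 0.77 at 10-11 days and from -0.35 to 0.37 at 12-13 days.

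At 10-11 days the outcome for AT3G04170 rested on single arrays. Without replicate 3 of Col-0 the difference was 0.61 (limma adjusted p = 0.0145), and without replicate 1 of C24 it was 0.56 (adjusted p = 0.0426). On the first principal component of all probe sets, which orders the arrays by stage, the 10-11 day arrays lay at 22.1 to 27.4 in C24 and at -1.14 to 15.7 in Col-0. In Col-0 the order of the arrays on this component, replicate 2 lowest and replicate 3 highest, was also their order for AT3G04170. The part of this position in the difference was not tested.

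The course of AT3G04170 was also compared between the accessions. These differences are made of the stage changes that chose the gene, so they are given as a description. The step from 8-9 to 10-11 days differed by 0.31 ± 0.24 (C24 minus Col-0, 95% interval -0.21 to 0.82) and the step from 10-11 to 12-13 days by -0.40 ± 0.24 (-0.91 to 0.11). The whole change differed by -0.09 ± 0.24 (-0.61 to 0.42). Each of these intervals held 0. In these comparisons 8.12%, 8.27% and 10.6% of all probe sets were called. In the order of the 6 group means the neighbours of the same stage, C24 and Col-0, overlapped at all 3 stages, and the only gaps without overlap were those between stages.

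AT3G04200 was lower in C24 than in Col-0 at every stage, and between 8-9 and 10-11 days it fell in C24 and rose in Col-0. In C24 its arrays read 8.33, 7.96 and 7.55 at 8-9 days, 6.74, 6.79 and 7.54 at 10-11 days, and 7.37, 7.50 and 7.55 at 12-13 days. In Col-0 they read 10.36, 10.29 and 10.56 at 8-9 days, 11.54, 11.71 and 11.74 at 10-11 days, and 11.94, 11.64 and 11.75 at 12-13 days. The highest C24 array, 8.33, lay below the lowest Col-0 array, 10.29, over all stages. All of these levels lay above the array medians.

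The accession difference is what brought AT3G04200 forward, so it is given as a description. It was -2.46 ± 0.19 at 8-9 days, -4.64 ± 0.19 at 10-11 days and -4.30 ± 0.19 at 12-13 days (C24 minus Col-0, log2 ± SE), which is 5.50-fold, 25.0-fold and 19.8-fold lower in C24. It ranked 15, 3 and 4 from the bottom of all probe sets at these stages, where 9.22%, 9.54% and 11.7% were called lower in C24. Accession held 92.1% of its variance over the 18 arrays, stage 0.88%, their combination 5.87% and the spread within groups 1.18%.

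The comparison of stages asked whether AT3G04200 changed while seeds developed. From 8-9 to 10-11 days it fell in C24, by 0.92 ± 0.19 (limma adjusted p = 0.000406), and rose in Col-0, by 1.26 ± 0.19 (adjusted p = 1.68e-05). The 10-11 and 8-9 day arrays did not overlap in either accession, but in C24 the nearest of them nearly met, at 7.540 and 7.545. In this step 50% of all probe sets were called in C24 and 43.3% in Col-0, 26% falling in C24 and 19.9% rising in Col-0. From 10-11 to 12-13 days the changes were 0.45 ± 0.19 in C24 and 0.11 ± 0.19 in Col-0, and neither passed (adjusted p = 0.0885 and 0.687), where 25.7% and 35.9% of all probe sets did. Without replicate 3 of C24 at 10-11 days, which read 7.54 where the others read 6.74 and 6.79, the change in C24 was 0.71 (adjusted p = 0.00348).

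Over the whole span AT3G04200 rose in Col-0, by 1.37 ± 0.19 (limma adjusted p = 3.22e-06), or 2.59-fold. In C24 the change over the whole span was -0.47 ± 0.19 (adjusted p = 0.0358), and the 12-13 and 8-9 day arrays overlapped. This call in C24 was lost without any 1 of 5 arrays, with changes from -0.51 to -0.28 in these fits, the last without replicate 1 at 8-9 days (adjusted p = 0.219). The others of the 5 were replicate 2 at 8-9 days (-0.47) and replicates 1, 2 and 3 at 12-13 days (-0.42, -0.49 and -0.51). Quantile normalizing the arrays once more also lost it (-0.44, adjusted p = 0.0516), as did a fit with each array centred on its median (-0.39, adjusted p = 0.0664). In the order of the 6 means the Col-0 groups at 12-13 and 10-11 days, 11.78 ± 0.15 and 11.67 ± 0.11, overlapped. So did the C24 groups that are neighbours in the order, 7.95 ± 0.39 at 8-9, 7.47 ± 0.09 at 12-13 and 7.02 ± 0.45 at 10-11 days (SD, n = 3).

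The difference between the accessions in the course of AT3G04200 is made of the accession differences that chose the gene. It is therefore given as a description. The step from 8-9 to 10-11 days was lower in C24 than in Col-0 (difference -2.18 ± 0.26), and so was the whole change (difference -1.85 ± 0.26). Of all probe sets, 4.24% and 5.9% were called lower in these comparisons. With each array left out in turn these differences ranged from -2.44 to -1.99 and from -2.05 to -1.65. The step from 10-11 to 12-13 days differed by 0.34 ± 0.26 (95% interval -0.22 to 0.89).

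**Figure D2:**
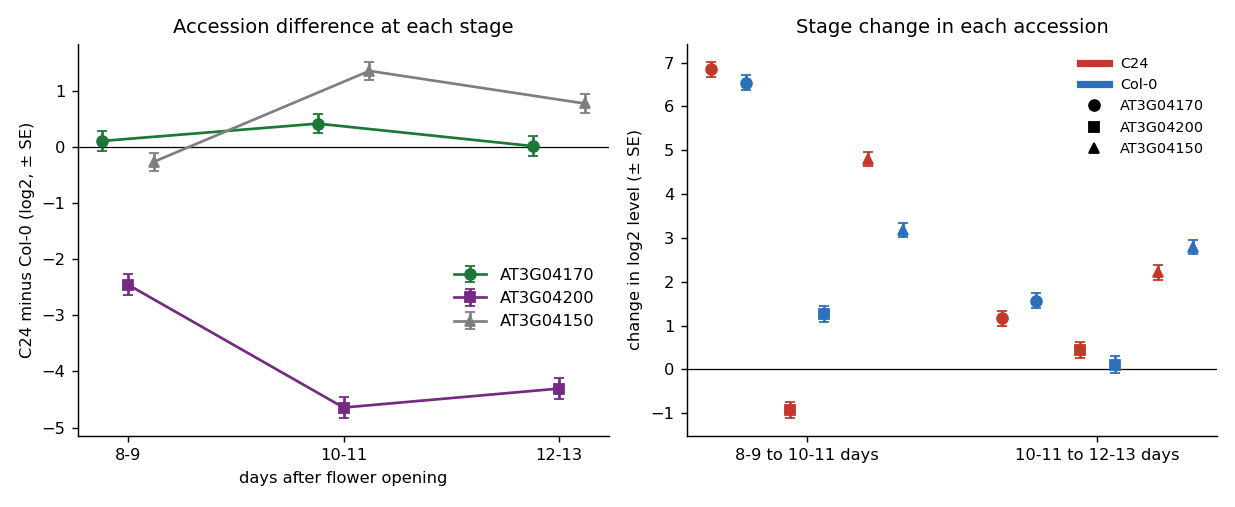
Left, C24 minus Col-0 at each stage; right, the change in each step within C24 and Col-0, for AT3G04170, AT3G04200 and AT3G04150 (log2 ± SE of the model, 3 arrays per group). In the first step AT3G04200 moves by -0.92 in C24 and 1.26 in Col-0, while AT3G04170 moves by 6.84 and 6.54.

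Some marker levels moved with these comparisons. The mean of the 6 seed storage and oil genes was 12.28 to 12.63 on the C24 arrays and 11.54 to 12.27 on the Col-0 arrays at 8-9 days, 13.36 to 13.45 against 13.26 to 13.30 at 10-11 days, and 13.35 to 13.40 against 13.18 to 13.24 at 12-13 days. This mean was thus higher in C24 with no overlap at each stage, and higher at both later stages than at 8-9 days. Not every gene in it followed. AT3G22640 averaged 13.23 in C24 and 13.26 in Col-0 at 10-11 days. AT5G51210 averaged 13.53 at 8-9 and 13.39 at 12-13 days in C24, and 13.37 and 12.95 in Col-0. The largest gap at 8-9 days was that of AT1G03890, 11.11 in C24 and 9.30 in Col-0. The seed coat marker DFR averaged 10.02, 8.39 and 8.37 at the 3 stages in C24 and 10.87, 8.67 and 8.50 in Col-0. The other, BAN, averaged 10.91, 8.49 and 8.27 in C24 and 11.66, 8.62 and 7.32 in Col-0. DFR was thus lower in C24 at every stage, as AT3G04200 was. BAN was lower in C24 at 8-9 days and higher at 12-13 days, and its arrays of the accessions overlapped at 10-11 days. The silique wall marker ALC read 6.01 to 6.44 in C24 and 6.12 to 6.38 in Col-0 at 8-9 days. In seed pools, fewer cells of a type and less RNA per cell cannot be told apart. The 3' minus 5' signal of an actin control averaged 2.02, 1.78 and 1.20 at the 3 stages in C24 and 1.89, 1.44 and 1.34 in Col-0, and that of a GAPDH control 0.54, 0.97 and 0.57 in C24 and 0.29, 0.76 and 1.21 in Col-0. The part of tissue makeup and RNA quality in the results was not tested.

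AT3G04150, the third measured gene of the cluster, shared the steep course of AT3G04170 and, unlike it, was called higher in C24. In C24 its arrays read 4.65, 4.82 and 4.74 at 8-9 days, 9.41, 9.67 and 9.55 at 10-11 days, and 11.79, 11.74 and 11.73 at 12-13 days. In Col-0 they read 4.94, 4.96 and 5.12, then 8.24, 7.65 and 8.68, then 10.95, 10.93 and 11.08. From 8-9 to 12-13 days it rose by 7.02 ± 0.16 in C24 (limma adjusted p = 1.27e-16) and by 5.98 ± 0.16 in Col-0 (adjusted p = 1.17e-15). Of this change 68.5% in C24 and 53.3% in Col-0 fell into the first step.

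AT3G04150 was higher in C24 by 1.35 ± 0.16 at 10-11 days (limma adjusted p = 7.37e-06) and by 0.77 ± 0.16 at 12-13 days (adjusted p = 0.00179), with no overlap of the arrays. At 8-9 days its difference was -0.27 ± 0.16 (adjusted p = 0.292). The 10-11 day difference ranged from 1.08 to 1.60 with each array left out in turn. The Col-0 arrays of 10-11 days had the order of the first principal component for this gene too. The part of this position in the difference was not tested. The rise of AT3G04150 in the first step was larger in C24 by 1.62 ± 0.23 (limma adjusted p = 0.000177). Over the 18 arrays its level correlated with that of AT3G04170 at r = 0.963 and with that of AT3G04200 at -0.049, and the pair described here correlated with each other at 0.056. These correlations describe arrays that share stages and plants.

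The flanking genes were looked at for the same stages and accessions. They were the 5 nearest genes with a named probe set on each side of the cluster and AT3G04160 inside it, 11 in all, with group means from 3.45 to 7.78. Their accession differences over the 3 stages lay between -0.36 and 0.14, and 2 of these 33 values were called. These were AT3G04020 at 10-11 days (-0.36) and AT3G04210, the next gene after AT3G04200, at 12-13 days (-0.31). AT3G04210 averaged 4.08 in C24 and 4.39 in Col-0 there, under the 25th percentile. Of all probe sets, 19.5%, 19.1% and 23% were called at the 3 stages. The call of AT3G04020 was lost without replicate 2 of C24 or of Col-0 at 10-11 days. That of AT3G04210 was lost without any 1 of 4 arrays of 12-13 days. Fitting the compared groups alone also lost both calls (limma adjusted p = 0.0877 and 0.0841). A trended and robust prior variance lost that of AT3G04020 (adjusted p = 0.0512). The differences of AT3G04020 and AT3G04210 ranged from -0.43 to -0.24 and from -0.40 to -0.24 over all 18 arrays left out in turn. AT3G04160 read 3.43 to 3.92 on all arrays, under the 25th percentile, and none of its differences was called. AT3G04030 (MYR2), AT3G04210 and AT3G04250 also had group means under it at every stage in both accessions. Differences of genes this dim can be understated. The stage changes of the 11 genes lay between -0.36 and 0.43, with 7 of 66 called, the whole change being the sum of both steps. Of all probe sets, 25.7% to 60.6% were called in these comparisons.

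**Figure D3:**
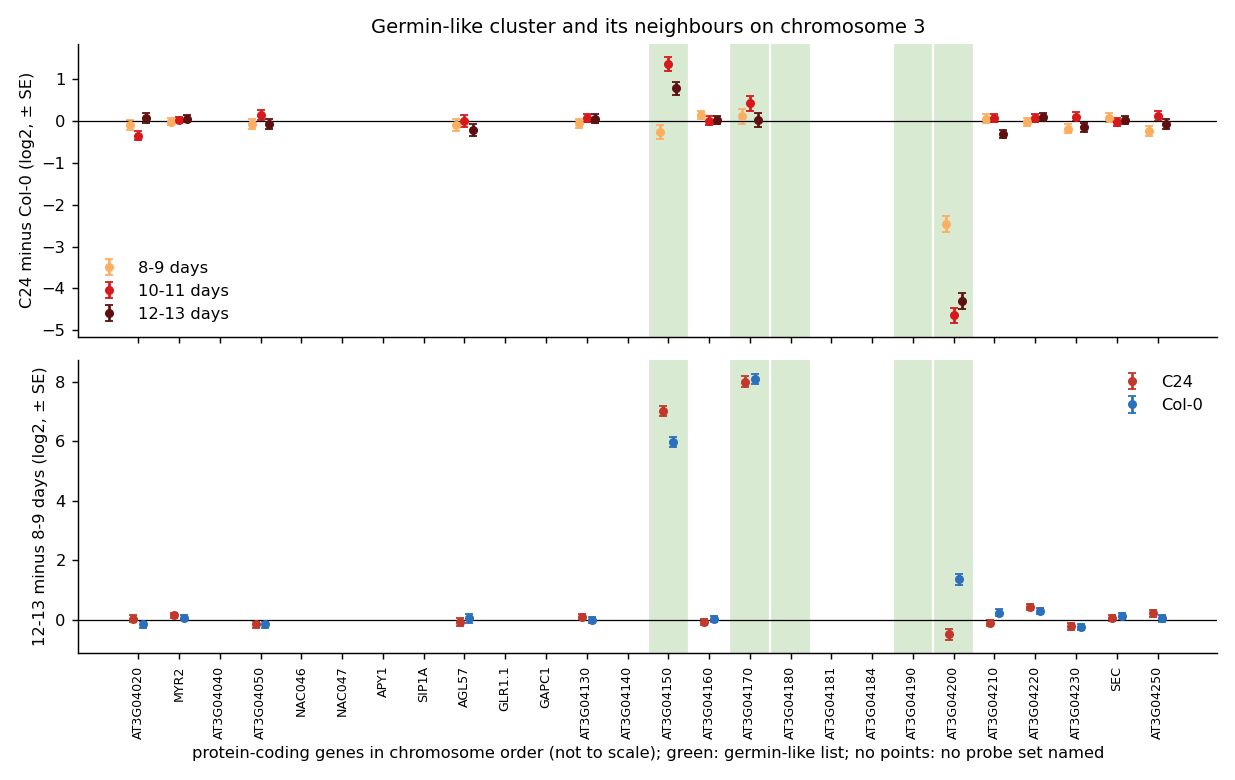
Protein-coding genes around the germin-like cluster of chromosome 3 in RefSeq order (not to scale). Top, C24 minus Col-0 at each stage; bottom, 12-13 minus 8-9 days in C24 and Col-0 (log2 ± SE); green marks the germin-like list, and genes with no points have no probe set named here. Apart from the germin-like genes, accession differences stay between -0.36 and 0.14.

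The wider germin-like family was taken from the hand-written list of 32 genes, of which the annotation named 12, AT3G04170 and AT3G04200 among them. Of the other 10, 4 lay under the lowest 25th percentile, 4.41, in all 6 groups and 4 lay above it in all. Between the accessions 2 of the 10 were called lower in C24 at 8-9 days, 1 higher and 2 lower at 10-11 days, and 1 higher and 1 lower at 12-13 days. Of all probe sets, 10.3%, 9.61% and 11.3% were called higher and 9.22%, 9.54% and 11.7% lower. The median differences of the 10 were -0.07, -0.08 and -0.06, against -0.02, 0.01 and -0.01 over all probe sets. AT5G38960, of a germin-like cluster on chromosome 5, was lower in C24 at 8-9 days by 1.23 on the log2 scale (difference -1.23 ± 0.19, limma adjusted p = 9.83e-05). It averaged 4.27 ± 0.25 in C24, under the 25th percentile, and 5.51 ± 0.48 in Col-0 (SD, n = 3).

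In the first step 2 of the 10 rose and 0 fell in C24, and 4 rose and 1 fell in Col-0, against 24% and 26% of all probe sets in C24 and 19.9% and 23.3% in Col-0. In the second step 2 rose and 1 fell in C24, and 3 rose and 2 fell in Col-0, against 11.7% and 14.1% in C24 and 17.6% and 18.3% in Col-0. The difference between the accessions was called higher for 2 and lower for 0 in the first step (3.88% and 4.24% of all probe sets), for 1 and 1 in the second (3.68% and 4.59%) and for 2 and 1 over the whole span (4.73% and 5.9%).

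From 8-9 to 12-13 days, 3 of the 10 rose and 1 fell in each accession, where 29.4% of all probe sets rose and 30% fell in C24 and 30.1% rose and 30.5% fell in Col-0. Apart from AT3G04150, the brightest of them was AT5G39130, which fell in the second step by 1.45 ± 0.28 in C24 and 1.54 ± 0.28 in Col-0 (limma adjusted p = 0.000681 and 0.000244). It averaged 9.67, 10.09 and 8.65 at the 3 stages in C24 and 9.34, 10.27 and 8.73 in Col-0. The highest mean of this gene was thus at 10-11 days in both accessions, whereas AT3G04170 had its highest mean at 12-13 days. The rise of AT5G39130 in the first step was not called in C24 (0.42 ± 0.28, limma adjusted p = 0.228). In Col-0 it was called (0.93 ± 0.28, adjusted p = 0.0109), but not without replicate 2 of Col-0 at 8-9 days (adjusted p = 0.0642). AT1G18980 was lower in C24 at 12-13 days by 0.61 (difference -0.61 ± 0.09, adjusted p = 4.79e-05), with a C24 mean of 4.49, within the range of the 25th percentiles.

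**Figure D4:**
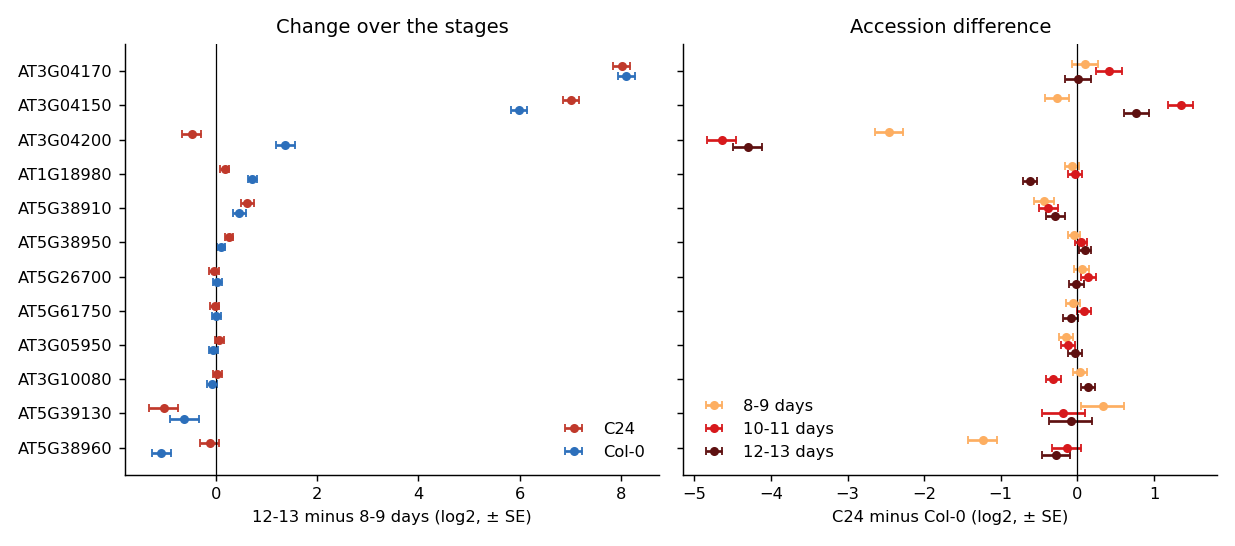
The 12 germin-like genes with a named probe set: left, 12-13 minus 8-9 days in C24 and Col-0; right, C24 minus Col-0 at each stage (log2 ± SE of the model, 3 arrays per group). AT3G04170 and AT3G04150 stand at changes from 5.98 to 8.10, and AT3G04200 at accession differences from -4.64 to -2.46.

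The genes most like each of the pair were sought among 11762 other probe sets with a single gene, by Pearson's r of the log2 level over the 18 arrays. For AT3G04170 the first 5 were AT3G60730, a pectin methylesterase, AT1G32700, AT1G68850, a peroxidase, HIS1-3, a linker histone, and AT1G25530, at r from 0.995 to 0.997. Their changes from 8-9 to 12-13 days lay between 2.51 and 8.28 in C24 and between 2.34 and 8.28 in Col-0, so that likeness in course did not mean likeness in size. AT3G04150 ranked 190 in this order, and 291 probe sets had an r over 0.95.

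For AT3G04200 only 12 probe sets had an r over 0.95. The first 5 were AT5G51490, a pectin methylesterase, AT1G61780, AT3G19520, AT1G03710 and AT1G17860, a Kunitz-type protease inhibitor, at r from 0.964 to 0.984. All 5 had lower means in C24 at every stage, with differences from -3.43 to -0.40 at 8-9 days, from -3.94 to -0.69 at 10-11 days and from -4.79 to -0.66 at 12-13 days. AT5G51490, the nearest, averaged 8.61, 8.16 and 7.81 at the 3 stages in C24 and 10.86, 11.90 and 11.55 in Col-0, and so also lay lower at 10-11 than at 8-9 days in C24 and higher in Col-0. These genes were picked for their likeness, so their values are a description.

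**Figure D5:**
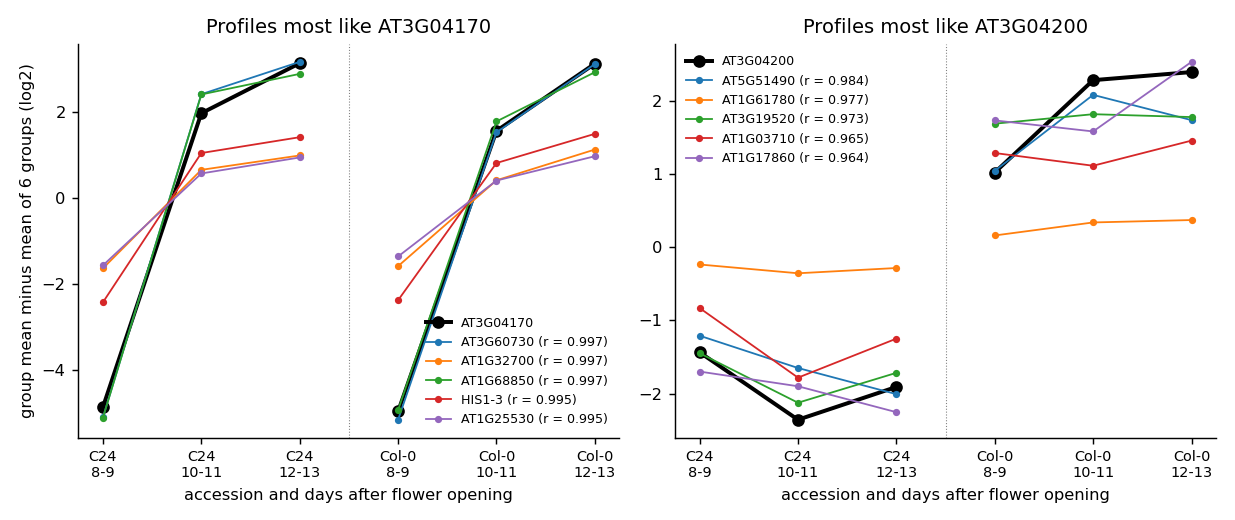
Group means of AT3G04170 (left, black) and AT3G04200 (right, black) with the 5 single-gene probe sets of highest Pearson's r over 18 arrays, each as the difference from the gene's mean over the 6 groups (log2), by accession and stage. The genes on the left go up with stage in both accessions, and those on the right are lower in C24 at every stage.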

How the data were processed

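Seeds of C24 and Col-0 at 3 stages were measured on 18 ATH1 arrays. The authors deposited a table of log2 levels, with a row per probe set. Per the labels, only probes identical in both genomes and matching a representative gene model of TAIR10 (the build in the submitters' processing notes) were kept, with at least 3 per probe set. How they corrected background and normalized, and with which software, is not given in the sources used here. Values entered the fit as deposited, without 11 control probe sets. Of 19755 probe sets, 11763 have a single gene in the platform annotation, and RefSeq's TAIR10.1 table, which held 11718 of these, gave gene order; no coordinates and no sequences are printed.

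A model of 6 group means was fitted to all arrays with limma 3.58.1 in R 4.3.3 (lmFit and eBayes, 12 residual and 5.8 prior degrees of freedom). Its 12 comparisons were the accession difference (C24 minus Col-0) per stage, the changes between stages in each accession and their differences. P-values were adjusted after Benjamini and Hochberg across the whole table, separately for each comparison, and called under 0.05; an exact permutation test of 3 arrays against 3 cannot go below 0.1. For arrays, their number limits the precision. The members and lists were chosen with earlier results of these data known. Named were the pair, the germin-like list, the 5 genes of highest r with each and the 5 nearest measured neighbours on each side. The fit was tested on simulated data. The labels name 2 experiments but do not assign arrays to them, so experiment could not be tested as a batch. Alternatives were a second quantile normalization, arrays centred on their medians, no dim probe sets, a trended and robust prior variance, the compared groups alone, control probe sets included, the replicate number as a block and each array left out in turn.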

Additional observations from a re-analysis of the deposited data

Results flagged for a closer look

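Listed here are the germin-like genes for which the same change over the stages was called different between the accessions (C24 minus Col-0, log2 ± SE, limma). Of all probe sets, 8.12% were called in the early step, 8.27% in the late step and 10.6% over the whole span. For AT3G04200 the difference was -2.18 ± 0.26 in the step from 8-9 to 10-11 days and -1.85 ± 0.26 over the whole span. These values are made of the accession differences that chose the gene, so they are a description, and the gene's place on this list is not a test result. For AT3G04150 it was 1.62 ± 0.23 and 1.04 ± 0.23 (adjusted p = 0.000177 and 0.00593), opposite in sign to AT3G04200. For AT5G38960 it was 1.09 ± 0.26 and 0.95 ± 0.26 (adjusted p = 0.0145 and 0.0261), with C24 means of 4.16 to 4.27, under the 25th percentile, and the second call was lost in 7 of 18 fits that left out an array (values from 0.74 to 1.21, highest adjusted p 0.0743). For AT1G18980 the step from 10-11 to 12-13 days differed by -0.59 ± 0.13 and the whole span by -0.54 ± 0.13 (adjusted p = 0.00749 and 0.00816), with means of 4.31 to 4.49 in C24 and of 4.38 and 4.42 at the first 2 stages in Col-0, all within or under the range of the 25th percentiles, so that these sizes are not exact. For AT3G10080 the step from 10-11 to 12-13 days differed by 0.45 ± 0.13 (adjusted p = 0.0394), a call lost in 9 of 18 fits that left out an array (values from 0.35 to 0.52, highest adjusted p 0.101).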

How the results depend on the processing

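The 24 differences of AT3G04170 and AT3G04200 counted as unchanged in 420 of 432 values with an array left out and in 165 of 168 under the other alternatives. Unchanged meant the same direction and the same side of the threshold. For the differences that chose the genes it meant the same direction and a shift under the residual SD, with no threshold. The differences in course between the accessions, given above as a description, were counted with the threshold. An array outside the compared groups cannot move an estimate when left out, so many of the 432 values could not change direction. In the exceptions the cause was not tested. Differences of AT3G04170 near 0 changed sign without passing: the 12-13 day accession difference was -0.0035 after a second quantile normalization and -0.13 to 0.11 with an array left out, and the accession difference in the whole change -0.23 to 0.010. With an array left out, the 10-11 day difference of AT3G04170 ranged from 0.19 to 0.61, the late change of AT3G04200 in C24 from 0.31 to 0.71 and its whole change in C24 from -0.67 to -0.28. That whole change was -0.44 after the second quantile normalization and -0.39 with arrays centred on their medians, and passed in neither. Called differences of the other named genes, AT3G04150 not included, were lost in 73 of 648 values with an array left out and 15 of 236 under the other alternatives, and none turned round. The late difference of AT3G04150 between the accessions passed without replicate 3 of Col-0 at 10-11 days (-0.83).

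Counts over the 10 other germin-like genes were small and moved. Leaving out the dimmest 30% of probe sets, which drops dim members of the list, gave 1 call where 2 were made at 8-9 and at 12-13 days and in the accession differences of the early and the late step, 1 where 3 were made in that of the whole change, 3 where 5 were made in the late step of Col-0, and 2 where 4 were made in its whole change. Fitting the compared groups alone gave 1 call at 10-11 days and 1 in the accession difference of the late step, as did a trended and robust prior variance for the last. With an array left out the counts ranged from 1 to 2 at 8-9 days, from 1 to 3 at 10-11 days, from 1 to 2 and from 3 to 5 in the early step of C24 and of Col-0, and from 1 to 2 in the accession difference of the late step. Over all probe sets, the calls in that last comparison ranged from 1040, without replicate 2 of Col-0 at 10-11 days, to 1767, against 1634 with all arrays.

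Arrays with the same replicate number did not deviate together (correlation above 0.1 in 6 of 45 pairs, and in 14 of 90 pairs with other numbers). With the replicate number as a block no call named here changed, the whole change of AT3G04200 in C24 having an adjusted p of 0.0434 (limma) and 3767 probe sets being called at 10-11 days against 3783 without the block.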
